A study of Homo sapiens with 208 samples.

Results

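The transcripts described are those of EGR1, EGR2, EGR3, NR4A1, NR4A2, IER2, IER3, PHLDA1, PTGS2 and SRF, genes of the immediate-early response. They were chosen by name and found on the array by the RefSeq accession of each probe, which gave 17 probes for the 10 genes, of 24794 probes for 16961 named genes. PC9 cells come from a human adenocarcinoma of the lung, carry a deletion that activates the EGF receptor, and are sensitive to gefitinib, which inhibits the kinase of that receptor. PC9GRM2, which the study calls PC9M2, is a resistant line picked from the clones of PC9 that survived exposure to gefitinib; it is 1 derived line. Both lines were starved for 48 h and then sampled at 26 time points, at 0 h, 0.5 h and each hour from 1 to 24 h, in 4 treatments, which were none, 100 ng/ml EGF, 0.5 µM gefitinib and both agents. Gefitinib was added 2 h before 0 h, so that the samples of 0 h had already met it. This gave 8 courses of 26 arrays, 208 in all, with 1 array for each line, treatment and time. No array was replicated. Time points therefore took the place of replicates. A p-value sets a mean difference against the spread between time points, not between repeated cultures. Neighbours in time may not be independent. The text calls the lines PC9 and PC9GRM2 and gives every value as log2 of the quantile-normalized array signal of 1 probe, a scale without a unit on which a step of 1 is a 2-fold change.

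Immediate-early genes are transcribed within minutes of a growth factor signal, without new protein. Activated receptors pass the signal through RAS and ERK to ternary complex factors, which sit with serum response factor (SRF) on CArG boxes, also called serum response elements, in front of EGR and FOS genes. The products are mostly transcription factors (EGR and NR4A proteins) or short-lived regulators, and feedback on ERK and on the transcripts themselves ends the pulse. In a tumour line whose receptor is active without ligand the same pathway runs before EGF is added, which makes EGF and gefitinib separate tests of it.

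Promoter sequences of RefSeq (GRCh38.p14) were at hand for 7 of the 10 genes, and 3 of the 7 held a CArG box in the 250 bases before a transcription start. They are EGR1, EGR2 (at 1 of its 3 starts) and SRF (at 1 of its 2 starts), and they are printed because the box is the element through which ERK signals reach these genes. Each runs 5′ to 3′ on the strand of its gene and ends at the base before the start, with the CArG boxes in capitals.
EGR1, chr5:138465229-138465478, + strand: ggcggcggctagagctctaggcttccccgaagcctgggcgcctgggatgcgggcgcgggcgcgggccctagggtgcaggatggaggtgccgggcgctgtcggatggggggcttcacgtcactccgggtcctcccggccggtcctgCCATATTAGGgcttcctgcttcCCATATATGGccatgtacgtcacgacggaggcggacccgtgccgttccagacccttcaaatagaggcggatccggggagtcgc
EGR2, chr10:62816367-62816616, - strand: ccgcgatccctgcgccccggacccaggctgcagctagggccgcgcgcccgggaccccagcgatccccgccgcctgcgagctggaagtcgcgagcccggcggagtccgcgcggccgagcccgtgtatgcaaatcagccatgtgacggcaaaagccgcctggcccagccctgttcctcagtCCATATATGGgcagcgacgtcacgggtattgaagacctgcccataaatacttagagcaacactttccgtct
SRF, chr6:43171019-43171268, + strand: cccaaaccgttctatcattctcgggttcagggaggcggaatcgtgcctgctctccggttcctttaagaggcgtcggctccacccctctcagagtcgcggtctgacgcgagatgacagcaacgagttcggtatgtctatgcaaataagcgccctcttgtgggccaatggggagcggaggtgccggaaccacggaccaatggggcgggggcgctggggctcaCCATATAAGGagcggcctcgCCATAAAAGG
The boxes of EGR1 lay at -105 to -96 and -83 to -74 from the start, the box of EGR2 at -71 to -62, and those of SRF at -30 to -21 and -10 to -1. CArG boxes were searched on both strands in windows of the same length, and 407 of all 35114 windows (1.16%) held one. The other motifs were searched the same way. The EGR site GCGNGGGCG was in 8.41% of all windows and lay at -198 in EGR1 and at -49 in SRF. The TATA box TATAAA was in 10.7% and lay at -32 in PTGS2. Neither the cyclic AMP response element TGACGTCA (1.65%) nor the AP-1 site TGANTCA (6.57%) was in a window of the 7 genes. These letters are a description of the windows and were not tested for binding.

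All 208 arrays passed the quality range of the scanner software, with 24464 to 35938 features well above background on an array. The 4 treatments of a line at a time shared a slide, so that differences between treatments were taken within slides. No scan day held both lines, so that line and scan period cannot be told apart. Saturated features numbered 183 to 1616 per array in PC9 and 0 in PC9GRM2, which touches IER2 and IER3. The 6 epithelial markers (EPCAM, CDH1 and 4 keratins) were well above background on all 208 arrays. The lung markers NAPSA, SFTPC, SFTPB and NKX2-1 were so on 207, 206, 89 and 13 arrays. Of the defining markers of other cell types, PTPRC of leukocytes was well above background on 1 array, the 4 fibroblast genes on 1 to 9, and KDR and CDH5 of endothelium on 4 and 34. PECAM1, VWF, CD14 and CD68 were so on 207 or 208 arrays.

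The slide of PC9GRM2 at 0.5 h went against its labels. Each array was set against the untreated array of its slide over genes, none of them among the 10, that had moved by over 1 on the log2 scale the same way with gefitinib at 0 h and 1 h. The mean shift towards gefitinib of these 145 genes was 1.23 on the PC9GRM2 array labelled EGF at 0.5 h, against -0.60 to 0.38 on the 25 other EGF arrays of that line. It was -0.235 on the array labelled EGF and gefitinib, against 0.76 to 1.92 on the 25 others, and 1.195 on the array labelled gefitinib. In PC9, where 135 genes were used, no array stood so, and at 0.5 h the shifts were -0.15 with EGF and 1.53 with both agents. For EGF in PC9GRM2, which of the 10 genes passed a test is therefore given as labelled and again without that slide. Leaving it out was an alternative chosen after seeing the data. Some sizes are not given both ways. The labels were kept.

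**Figure D1:**
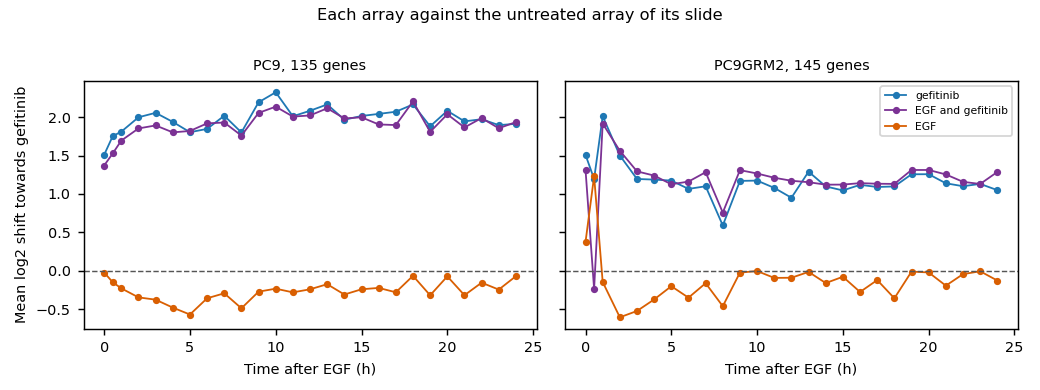
Mean log2 shift of each array from the untreated array of its slide, over the 135 (PC9) or 145 (PC9GRM2) genes that moved with gefitinib at 0 h and 1 h, against time in h; colours are the 3 treatments. At 0.5 h in PC9GRM2 the array labelled EGF lies at 1.23, among the gefitinib arrays, and the array labelled EGF and gefitinib at -0.235, among the EGF arrays.

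Differences were tested with limma on matched time points, with Benjamini-Hochberg adjustment over all genes tested and a threshold of 0.05. A gene entered the tests if any of the 8 courses had 13 or more arrays with its probe well above background, as was so for 9 of the 10 genes and 13263 of all 16961. PTGS2 did not and is given by its values. At 0 h, before EGF could act, arrays with and without EGF differed for any of the 10 genes by at most 0.275 in PC9 and 0.524 in PC9GRM2 without gefitinib, and by at most 0.633 and 0.72 with it. Without gefitinib limma called none of the 9 there, beside 2 of 13253 genes (0.0151%) in PC9 and 9 of 13257 genes (0.0679%) in PC9GRM2.

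In PC9 cells EGF raised 4 of the 9 tested genes within 1 h, EGR1, EGR2, NR4A1 and IER3, and from 2 to 4 h it raised EGR1, EGR2, EGR3, NR4A1 and PHLDA1. None fell. Over all genes limma called 16 of 13260 genes (0.121%) at 0.5 to 1 h (n = 2 time points) and 109 of 13263 genes (0.822%) at 2 to 4 h (n = 3). These windows borrow the spread of the later time points, and fitted on its own 2 or 3 time points neither window called any of the 9. The largest early rises among the 9 were those of EGR1 and EGR2, of 4.6-fold and 4.85-fold.

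EGR1 is a zinc finger transcription factor and the best known target of the ERK pathway among the EGR genes. At 0, 0.5, 1, 2, 3 and 4 h it stood at 9.81, 10.08, 10.03, 9.88, 10.44 and 10.57 in untreated PC9, and at 9.99, 12.21, 12.29, 11.38, 10.97 and 11.39 with EGF. The course with EGF was above the untreated one at all 26 time points, with its peak at 1 h. The difference was 2.20 ± 0.21 (SE) at 0.5 to 1 h (limma, adjusted p = 2.3e-06) and 0.95 ± 0.17 at 2 to 4 h (limma, adjusted p = 0.0047). EGR2, a zinc finger factor of the same family, read 5.58, 5.39, 5.23, 5.34, 5.92 and 6.07 without treatment and 5.55, 7.45, 7.72, 7.36, 7.21 and 6.93 with EGF at the same times. The groups did not overlap from 0.5 to 4 h, and the differences were 2.28 ± 0.30 (limma, adjusted p = 1.3e-04) and 1.39 ± 0.24 (limma, adjusted p = 0.0041). EGR3, known to follow EGR1 and EGR2 in many cells, read 7.56, 7.74, 7.37, 7.03, 6.90 and 6.02 without treatment and 7.79, 8.60, 9.04, 8.92, 8.42 and 7.14 with EGF. Its difference was largest at 2 h, at 1.89, and those of EGR1 and EGR2 at 1 h. The mean was 1.27 ± 0.29 at 0.5 to 1 h, which did not pass the test (limma, adjusted p = 0.11), and 1.51 ± 0.23 at 2 to 4 h, which did (limma, adjusted p = 0.0016).

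**Figure D2:**
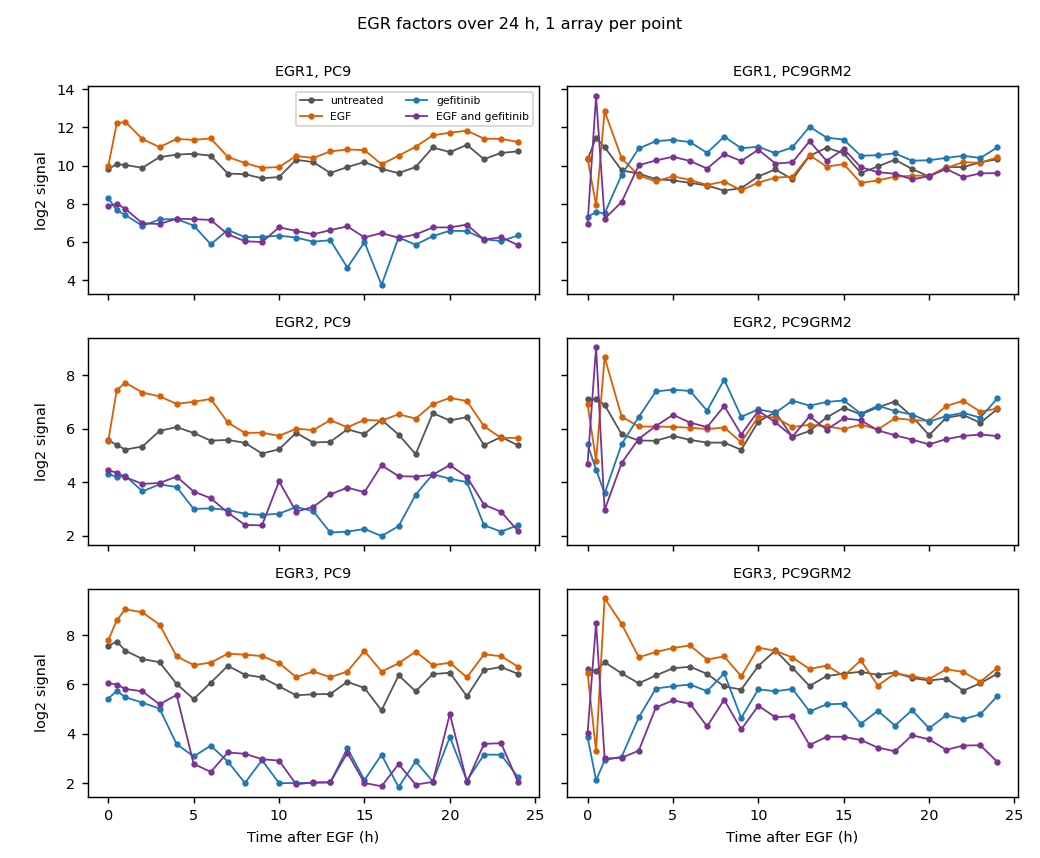
log2 signal of EGR1, EGR2 and EGR3 against time after EGF in h, 1 array per point, PC9 on the left and PC9GRM2 on the right, with the 4 treatments as coloured lines. In PC9 the EGF course of EGR1 peaks at 12.29 at 1 h and both gefitinib courses stay below 8.30. In PC9GRM2 the gefitinib course of EGR1 climbs from 7.32 at 0 h to 11.28 at 4 h.

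NR4A1 (NUR77) and NR4A2 (NURR1) are orphan nuclear receptors that act without a known hormone and are induced by growth factors and stress. NR4A1 read 8.65, 8.67, 8.46, 8.20, 7.85 and 7.62 in untreated PC9 over the first 4 h and 8.80, 9.50, 9.76, 9.46, 8.39 and 8.35 with EGF. It was higher with EGF at each of these times, and it rose by 1.06 ± 0.21 at 0.5 to 1 h (limma, adjusted p = 0.024) and by 0.84 ± 0.17 at 2 to 4 h (limma, adjusted p = 0.01). NR4A2 read 5.85, 5.87, 6.12, 6.03, 5.91 and 6.07 untreated and 6.06, 6.58, 6.71, 6.32, 6.20 and 5.57 with EGF. Its difference of 0.65 ± 0.26 at 0.5 to 1 h did not pass the test (limma, adjusted p = 1.00), with a 95% interval of 0.14 to 1.15.

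IER2 and IER3 encode small immediate-early proteins, of which IER3 is known as a regulator of survival and of ERK dephosphorylation. IER3 read 14.90, 14.78, 14.77, 15.13, 15.96 and 14.25 in untreated PC9 and 14.94, 16.46, 15.37, 14.82, 15.98 and 14.06 with EGF. Its differences at 0.5 h and 1 h were 1.68 and 0.60, those at the other early times lay within 0.31 of 0, and the window's rise was 1.14 ± 0.20 (limma, adjusted p = 0.0087). That call was lost with scaling to the 75th percentile (0.29) and with normexp background correction (0.56), and the IER3 probe was saturated on 5 of the 26 EGF arrays of PC9 and 2 of the 26 untreated ones. IER2 sat at the top of the scale, at 16.96, 17.00, 16.75, 16.83, 16.85 and 16.98 without treatment and 16.96, 16.96, 16.90, 16.91, 16.83 and 17.04 with EGF. Its probe was saturated on 18 of 26 untreated and 22 of 26 EGF arrays of PC9 and the other probe of IER2 on 103 of all 208 arrays, so that the size of a rise could not be read there. The differences of IER2 were 0.05 ± 0.34 at 0.5 to 1 h and 0.04 ± 0.28 at 2 to 4 h.

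PHLDA1 encodes a pleckstrin homology-like protein tied to cell death and growth factor signals. It read 8.55, 8.62, 8.39, 8.58, 8.61 and 8.23 in untreated PC9 and 8.66, 8.93, 8.76, 9.25, 9.27 and 8.66 with EGF, higher with EGF at every one of these times. Its difference was 0.34 ± 0.14 at 0.5 to 1 h, not past the test (limma, adjusted p = 1.00), and 0.59 ± 0.11 at 2 to 4 h (limma, adjusted p = 0.0078). PHLDA1 has 4 probes, and of the 3 not used A_23_P76450 gave 0.72 at 2 to 4 h (limma, adjusted p = 0.0073), while A_23_P338912 and A_24_P915692 gave 0.26 and 0.29 without passing. PTGS2 (COX-2), the inducible enzyme of prostaglandin synthesis, was well above background on only 6 of 26 untreated and 6 of 26 EGF arrays of PC9. It read 4.40, 4.55, 4.30, 3.95, 3.96 and 3.09 without treatment and 4.68, 5.11, 5.02, 4.88, 4.85 and 3.14 with EGF. With the filter on dim probes lifted, the differences of 0.64 ± 0.33 (SE) at 0.5 to 1 h and 0.62 ± 0.27 at 2 to 4 h did not pass (limma, adjusted p = 1.00 and 0.42). Its other probe gave 0.78 ± 0.47 at 2 to 4 h.

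SRF encodes the factor that binds the CArG boxes shown above, 2 of which lie in front of SRF itself. It read 7.46, 7.59, 7.40, 7.78, 8.73 and 8.11 in untreated PC9 and 7.66, 8.19, 8.04, 8.66, 8.15 and 8.80 with EGF. EGF was higher at every time but 3 h, where the untreated array was the highest of its course. The differences of 0.62 ± 0.25 and 0.33 ± 0.20 did not pass (limma, adjusted p = 1.00 and 0.59). The probe A_24_P346277 of SRF gave 0.61 ± 0.11 at 2 to 4 h, which passed (limma, adjusted p = 0.0060), and A_23_P111020 gave 0.12. Few time points carry the early calls of EGF. Without 0.5 h the genes called in the first window were EGR1 (2.26) and EGR2 (2.497), and without 1 h EGR1 (2.14) and IER3 (1.68), so that NR4A1 needed both times. At 2 to 4 h, EGR3 alone passed without 2 h (1.32), EGR1 and EGR3 without 3 h (1.16 and 1.502), and all 5 without 4 h.

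**Figure D3:**
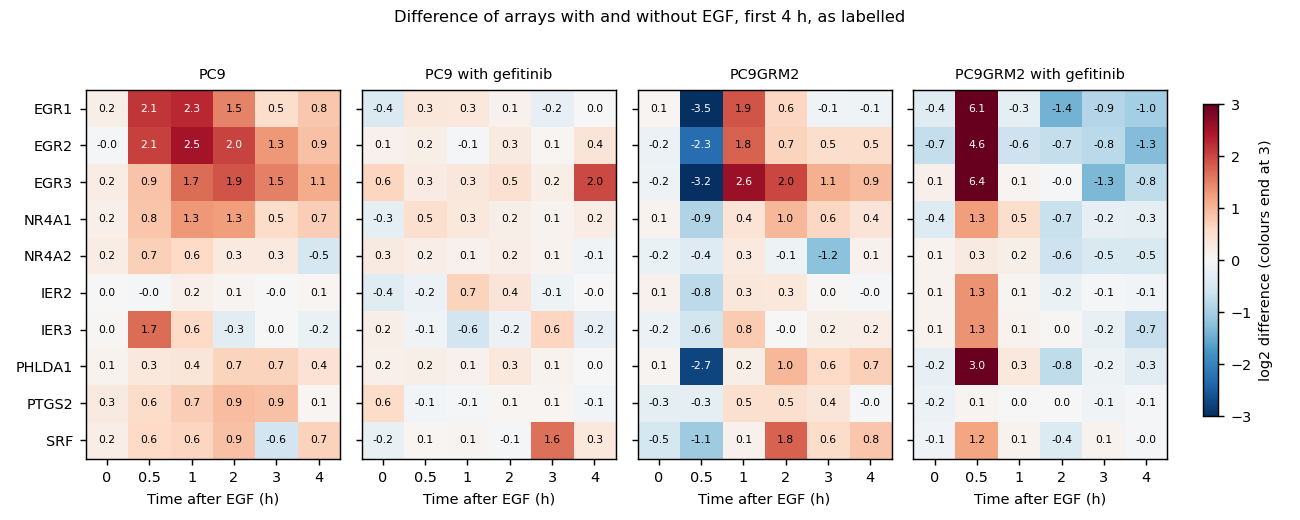
Difference of log2 signal between arrays with and without EGF at 0, 0.5, 1, 2, 3 and 4 h for the 10 genes, as labelled, in each line without and with gefitinib; numbers are the differences and colours end at 3. In PC9 the EGR genes are red from 0.5 h to 4 h, and with gefitinib 2 differences exceed 1, EGR3 at 4 h (1.99) and SRF at 3 h (1.65). The column of 0.5 h in PC9GRM2 is the slide that goes against its labels.

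With gefitinib present, the test called none of the 9 genes for EGF in PC9 in either early window, beside 17 of 13259 genes (0.128%) at 0.5 to 1 h and 4 of 13262 genes (0.0302%) at 2 to 4 h. EGR1 read 8.30, 7.65, 7.41, 6.84, 7.18 and 7.20 with gefitinib alone and 7.86, 8.00, 7.73, 6.98, 6.94 and 7.22 with both agents over the first 4 h, and the groups overlapped. Its difference at 0.5 to 1 h was 0.33 ± 0.49, with a 95% interval of -0.63 to 1.29 (limma, adjusted p = 1.00). The windows share their spread, so that this SE takes in differences of 2.16 at 14 h and 2.72 at 16 h. There the gefitinib arrays read 4.66 and 3.75 for EGR1, and they also enter the test of the difference below. EGR2 read 4.33, 4.19, 4.25, 3.67, 3.93 and 3.83 with gefitinib and 4.44, 4.37, 4.20, 3.94, 3.98 and 4.21 with both. The test of the difference itself, the EGF effect without gefitinib minus that with it over 0.5 to 4 h, called none of the 9 and 11 of 13262 genes (0.0829%). It gave 1.33 ± 0.35 for EGR1 (limma, adjusted p = 0.21), 1.58 ± 0.41 for EGR2 (limma, adjusted p = 0.19) and 0.67 ± 0.18 for NR4A1 (limma, adjusted p = 0.24). With normexp background correction it called EGR1, EGR2, EGR3 and NR4A1, at 1.22, 0.48, 0.62 and 0.51, with a floor of 16 EGR2 alone at 1.68, and with scaling to the 75th percentile EGR2 alone at 1.65. Most gefitinib arrays of EGR2 and EGR3 in PC9 were not well above background (6 and 7 of 26 were).

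In PC9GRM2 cells the early response to EGF rests on the slide of 1 h, since that of 0.5 h went against its labels. As labelled, the test called none of the 9 genes for EGF at 0.5 to 1 h, beside 8 of 13263 genes (0.0603%). Without the slide of 0.5 h EGF raised EGR1, EGR3 and IER3 at 1 h, beside 38 of 13251 genes (0.287%). EGR1 read 10.32, 11.45, 10.96, 9.74, 9.58 and 9.29 in untreated PC9GRM2 at 0, 0.5, 1, 2, 3 and 4 h and 10.38, 7.91, 12.85, 10.37, 9.48 and 9.17 on the arrays labelled EGF. The array of 1 h labelled EGF was the highest of its course and that of 0.5 h the lowest. The 0.5 h array labelled EGF and gefitinib read 13.64 for EGR1, the highest EGR1 value of all 208 arrays. EGR1 differed by -0.83 ± 0.61 at 0.5 to 1 h as labelled (limma, adjusted p = 1.00) and by 1.89 ± 0.39 at 1 h alone (limma, adjusted p = 0.028).

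EGR3 read 6.63, 6.54, 6.90, 6.45, 6.04 and 6.36 untreated and 6.47, 3.31, 9.50, 8.44, 7.10 and 7.31 with EGF at these times in PC9GRM2. It differed by 2.60 ± 0.41 at 1 h (limma, adjusted p = 0.0017) and by 1.33 ± 0.24 at 2 to 4 h (limma, adjusted p = 0.0033), both without the slide of 0.5 h. EGR2 read 7.10, 7.11, 6.90, 5.79, 5.56 and 5.55 untreated and 6.91, 4.82, 8.67, 6.45, 6.09 and 6.08 with EGF. Its 1.77 ± 0.42 at 1 h did not pass (limma, adjusted p = 0.092). IER3 rose by 0.78 ± 0.16 at 1 h (limma, adjusted p = 0.023). With 1 time point in that window, the spread is taken from the later ones. As labelled, EGR3, EGR2 and IER3 differed by -0.32, -0.26 and 0.11 at 0.5 to 1 h.

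At 2 to 4 h SRF alone of the 9 was called in PC9GRM2 as labelled, beside 262 of 13263 genes (1.98%). It read 8.44, 7.85, 7.82, 6.99, 6.52 and 7.98 untreated and 7.91, 6.79, 7.95, 8.77, 7.08 and 8.82 with EGF, and rose by 1.06 ± 0.22 (limma, adjusted p = 0.018). The call rested on 2 h, without which none of the 9 passed, and its probes A_24_P346277 and A_23_P111020 gave 0.51 ± 0.12 (limma, adjusted p = 0.032) and 0.44 ± 0.19 (limma, adjusted p = 0.23). Without the slide of 0.5 h, EGR3, NR4A1 and SRF were called, beside 352 of 13263 genes (2.65%). NR4A1 read 8.58, 8.23, 8.45, 8.44, 8.41 and 8.07 untreated and 8.69, 7.33, 8.85, 9.44, 9.03 and 8.45 with EGF, with its peak at 2 h against 1 h in PC9, and rose by 0.67 ± 0.15 (limma, adjusted p = 0.015). PTGS2 was well above background on no array of PC9GRM2. The EGF effects of the lines over 0.5 to 4 h were tested against each other, which called 0 of 13263 genes (0%) as labelled and 0 of 13263 genes (0%) without the slide of 0.5 h. For EGR1 the difference, PC9GRM2 minus PC9, was -0.71 ± 0.23 without that slide, with a 95% interval of -1.16 to -0.25. As labelled it was -1.70.

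With gefitinib present, EGF in PC9GRM2 raised EGR1, EGR3, NR4A1, IER2 and PHLDA1 at 0.5 to 1 h as labelled, beside 194 of 13263 genes (1.46%). Without the slide of 0.5 h none of the 9 was called, beside 57 of 13250 genes (0.43%). EGR1 differed by 2.90 ± 0.67 as labelled and by -0.28 ± 0.27 without the slide. At 2 to 4 h none was called as labelled, beside 0 of 13263 genes (0%), with 761 genes at an unadjusted p under 0.05. Without the slide EGR1 was lower with both agents than with gefitinib alone, with a difference of -1.10 ± 0.16 (limma, adjusted p = 0.0036), beside 2 of 13263 genes (0.0151%). EGR1 read 7.32, 7.56, 7.49, 9.52, 10.89 and 11.28 with gefitinib and 6.95, 13.64, 7.21, 8.10, 10.02 and 10.27 with both. Both courses climbed from 1 h to 4 h, and the one with EGF lay below the other at each of these times but 0.5 h. At 0 h, before EGF could act, the difference was already -0.37. The EGF effect without gefitinib minus that with it called none of the 9 as labelled, beside 1 of 13263 genes (0.00754%). Without the slide it called EGR1, EGR2 and EGR3, at 1.47 ± 0.26, 1.73 ± 0.29 and 2.17 ± 0.26 (limma, adjusted p = 0.0051, 0.0032 and 1.1e-04), beside 54 of 13263 genes (0.407%). The size for EGR3 is uncertain, since it read as low as 2.93 with gefitinib and 3.00 with both agents at 1 h.

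The EGR transcripts stayed above the untreated course for the rest of the day in PC9. From 5 to 24 h (n = 20 time points) limma called 3541 of 13263 genes (26.7%), and 5 of the 9. EGR1 was higher with EGF at all 20 time points, by 0.71 ± 0.07 (limma, adjusted p = 1.3e-08), EGR3 at 20 by 0.81 ± 0.09 and EGR2 at 18 by 0.59 ± 0.09. PHLDA1 was higher at 20 of 20, by 0.55 ± 0.04 (limma, adjusted p = 7.0e-10). NR4A2 was lower with EGF at 16 of 20, with a difference of -0.31 ± 0.08 (limma, adjusted p = 0.006). NR4A1, IER2, IER3 and SRF differed by -0.14, 0.03, -0.09 and 0.16 and were not called. The SRF probe A_23_P111020 was called, at 0.27 ± 0.08 (limma, adjusted p = 0.015), and NR4A1 was called with scaling to the 75th percentile (-0.18) and without 5 h (-0.18). Under gefitinib none of the 9 was called at these times in PC9, beside 31 of 13263 genes (0.234%), with EGR1 at 0.44 ± 0.16 and EGR2 at 0.65 ± 0.16 (limma, adjusted p = 0.25 and 0.092).

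In PC9GRM2 from 5 to 24 h the test called none of the 9 for EGF as labelled, beside 1432 of 13263 genes (10.8%), and without the slide of 0.5 h, whose spread is shared by all windows, EGR3 and IER3, beside 1484 of 13263 genes (11.2%). EGR3 was higher by 0.39 ± 0.09 (limma, adjusted p = 0.0059) and IER3 by 0.15 ± 0.04 (limma, adjusted p = 0.0059), and EGR1 differed by -0.18 ± 0.09. Under gefitinib the direction was down. EGF with gefitinib gave lower EGR1, EGR2, EGR3, NR4A1 and PHLDA1 than gefitinib alone from 5 to 24 h, beside 861 of 13263 genes (6.49%), and without the slide of 0.5 h IER2 as well, beside 981 of 13263 genes (7.4%). EGR1, EGR2, EGR3 and PHLDA1 were each lower at 20 of 20 time points. IER3 was lower at 19 of 20, but its mean of 0.11 ± 0.45 takes in a difference of 9.70 at 16 h. There the array with gefitinib alone read 2.35 for IER3, and the SE of IER3 under gefitinib takes in that array in every window. The differences were -0.82 ± 0.06 for EGR1 (limma, adjusted p = 1.5e-08), -0.79 ± 0.07 for EGR2 and -1.11 ± 0.11 for EGR3. With both agents EGR3 had a median of 3.88, within the range of the dim gefitinib arrays of PC9, so that its size is uncertain. At 0 h, before EGF could act, these 2 courses differed by -0.37 for EGR1, -0.72 for EGR2 and 0.15 for EGR3. Whether such an offset carried into the later times was not tested, so that the part of EGF in the EGR1 and EGR2 differences is uncertain. The window of 5 to 24 h under gefitinib was added after seeing the data.

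Gefitinib alone lowered all 9 tested genes in PC9, IER2 among them on only 1 of its 2 probes. Over the 26 time points EGR1 lay between 9.33 and 11.08 with a median of 10.13 without treatment and between 3.75 and 8.30 with a median of 6.28 with gefitinib, and the groups did not overlap. The mean difference was -3.78 ± 0.18, 13.7-fold in size, lower at 26 of 26 time points (limma, adjusted p = 2.7e-16). EGR2 lay between 5.06 and 6.58 with a median of 5.58 untreated and between 2.00 and 4.33 with a median of 2.99 with gefitinib, again without overlap, and the means differed by -2.55. PHLDA1 fell from a median of 8.56 to 4.63, and its 4 probes gave -3.76 ± 0.23 on the probe used and -3.30, -3.02 and -2.77 on the others. EGR3 differed by -3.09 ± 0.17. Gefitinib arrays of EGR2, EGR3 and PHLDA1 were well above background at 6, 7 and 13 of 26 time points. At the others the probe was not well above background, so that the sizes of these 3 differences are uncertain and the lowest values have no order. NR4A1, NR4A2, IER3 and SRF differed by -0.88 ± 0.09, -0.70 ± 0.11, -0.97 ± 0.22 and -0.68 ± 0.14, all past the test. Gefitinib changed most genes in PC9, 9593 of 13263 genes (72.3%), with 37.2% lower, so that a call alone sets a gene little apart. Over the 9 genes the median was -0.97, against -0.02 over all genes.

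IER2 has no settled direction in PC9. The probe used gave -0.79 ± 0.13 with gefitinib (limma, adjusted p = 3.9e-06), saturated on 18 of 26 untreated and 5 of 26 gefitinib arrays, and the other probe, A_32_P36235, gave 0.11 ± 0.06 with the opposite sign. With scaling to the 75th percentile the value was -0.10 and the call was lost. PTGS2 lay between 2.16 and 4.59 with a median of 3.12 in untreated PC9 and between 1.99 and 3.48 with a median of 2.56 with gefitinib. With the filter lifted it differed by -0.64 ± 0.10 (limma, adjusted p = 1.6e-06), and 5 of the 26 gefitinib arrays were well above background. Its other probe gave -0.24 ± 0.13.

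In PC9GRM2 gefitinib lowered 5 of the 9 genes over the 26 time points, EGR3, NR4A1, IER3, PHLDA1 and SRF, beside 8848 of 13263 genes (66.7%), with 34.2% lower. EGR1 lay between 8.69 and 11.45 with a median of 9.81 untreated and between 7.32 and 12.03 with a median of 10.65 with gefitinib. The groups overlapped, and the mean difference of 0.60 ± 0.31 did not pass (limma, adjusted p = 0.091). Leaving out 0 h, 0.5 h or 1 h brought it past the test, at 0.74, 0.77 and 0.76. EGR2 differed by 0.30 ± 0.24 (limma, adjusted p = 0.28). EGR3 was lower at 25 of 26 time points, with a difference of -1.53 ± 0.20 (limma, adjusted p = 1.5e-07), and PHLDA1 at 26 of 26, with -1.82 ± 0.15 (limma, adjusted p = 1.8e-11). Gefitinib values of EGR3 went down to 2.11, so that its size is uncertain.

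The mean over the day joined opposite signs of EGR1 and EGR2 in PC9GRM2. Split into windows, a choice made after seeing the data, gefitinib at 0 to 1 h lowered 7 of the 9 genes in PC9GRM2, all but NR4A2 and IER3, beside 402 of 13263 genes (3.03%). IER3 was lower at 0, 0.5 and 1 h, by -0.70, -0.46 and -0.68, with a mean of -0.61 ± 1.14. The windows share their spread, so that this SE takes in the gefitinib array of 16 h, which read 2.35 for IER3. EGR1 differed from the untreated arrays by -2.998, -3.89 and -3.47 at 0, 0.5 and 1 h, and the means of the window were -3.45 ± 0.42 for EGR1, -2.54 ± 0.43 for EGR2 and -3.72 ± 0.40 for EGR3. EGR3 read 3.87, 2.11 and 2.93 on these gefitinib arrays. That is within the range of the PC9 gefitinib arrays (1.84 to 5.74), most of which were not well above background, so that the size for EGR3 is uncertain. From 5 to 24 h EGR1 was above the untreated course, by 1.14 ± 0.16 (limma, adjusted p = 7.5e-07), and EGR2 by 0.65 ± 0.17 (limma, adjusted p = 0.0012), while EGR3, PHLDA1, NR4A1, IER3 and SRF were below it, beside 9042 of 13263 genes (68.2%). The gefitinib course of EGR1 crossed the untreated one between 2 and 3 h, and stayed above it to 24 h. That of EGR2 crossed at the same time and lay above the untreated one at 20 of 26 time points. The change from 0-1 h to 5-24 h was upward for EGR1, EGR2, EGR3, IER2, PHLDA1 and SRF, beside 3068 of 13263 genes (23.1%). It was 4.59 ± 0.45 for EGR1 (limma, adjusted p = 8.0e-08) and 3.19 ± 0.46 for EGR2.

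In PC9 the same split called none of the 9 upward. The calls of IER2 in this paragraph rest on the probe that was saturated on most untreated PC9 arrays. Its other probe was not fitted by window. Gefitinib lowered EGR1, EGR3, IER2 and PHLDA1 at 0 to 1 h, beside 287 of 13259 genes (2.16%), and all 9 from 5 to 24 h, beside 9897 of 13263 genes (74.6%). The change between the windows was downward for EGR1, EGR2, EGR3, NR4A2, IER3 and PHLDA1, beside 4415 of 13259 genes (33.3%), and was -1.91 ± 0.43 for EGR1 (limma, adjusted p = 0.0013). NR4A1 gave 0.02 ± 0.29, and its gefitinib difference in PC9 lay between -1.60 and -0.60 up to 17 h and between -0.39 and 0.17 from 18 to 24 h. That of SRF lay between -0.60 and 0.36 from 19 h on. The difference of the change, PC9GRM2 minus PC9, was tested and called EGR1, EGR2, EGR3 and PHLDA1, beside 418 of 13259 genes (3.15%). At 0 to 1 h the gefitinib effect of the lines differed for none of the 9, beside 1 of 13259 genes (0.00754%), with EGR1 at -1.27 ± 0.45 (limma, adjusted p = 1.00). From 5 to 24 h it differed for 7 of the 9, all but IER3 and SRF, beside 5271 of 13263 genes (39.7%), with EGR1 at 5.24 ± 0.17 (limma, adjusted p = 2.2e-18). The difference of the change was 6.51 ± 0.48 for EGR1 (limma, adjusted p = 2.0e-09), 4.90 ± 0.58 for EGR2 (limma, adjusted p = 9.2e-06), 3.96 ± 0.69 for EGR3 and 3.57 ± 0.61 for PHLDA1. The sizes for EGR2, EGR3 and PHLDA1 take in gefitinib arrays of PC9 that were not well above background.

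**Figure D4:**
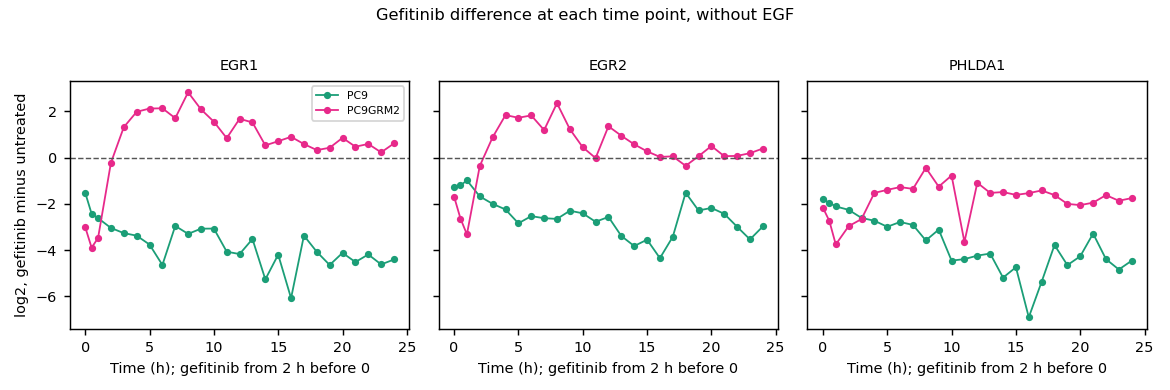
Difference of log2 signal between the gefitinib and the untreated array of each slide, against time in h, for EGR1, EGR2 and PHLDA1 in PC9 and PC9GRM2; the dashed line is no difference. In PC9 every point is below 0. In PC9GRM2 EGR1 and EGR2 start below 0 and pass it between 2 and 3 h, and PHLDA1 stays below 0.

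Over the 26 time points the gefitinib effect differed between the lines for 6 of the 9 genes, beside 4507 of 13263 genes (34%). PC9GRM2 minus PC9, it was 4.37 ± 0.41 for EGR1 (limma, adjusted p = 6.5e-09), 2.85 ± 0.34 for EGR2, 1.94 ± 0.31 for PHLDA1, 1.56 ± 0.33 for EGR3 and 0.53 ± 0.15 for NR4A2. The sizes for EGR2, EGR3 and PHLDA1 rest on the dim gefitinib arrays of PC9 named above. For NR4A1, IER3 and SRF it was 0.25 ± 0.15, -0.35 ± 0.36 and 0.24 ± 0.18, with 95% intervals of -0.04 to 0.54, -1.04 to 0.35 and -0.11 to 0.59. Without 16 h, where 1 array of PC9GRM2 stood apart, IER3 gave 0.00028 ± 0.15. The SRF probe A_23_P111020 passed, at 0.36 ± 0.12 (limma, adjusted p = 0.018), and A_24_P346277 gave 0.07. IER2 was called at 0.71 ± 0.12, but scaling to the 75th percentile gave -0.06 and its other probe -0.23. With 1 time point in 3 used, EGR1 and EGR2 alone of the 9 were called. Since the lines share no scan day, a line's effect and that of its scan period cannot be told apart.

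Without treatment 5 of the 9 genes differed between the lines, beside 9033 of 13263 genes (68.1%). PC9GRM2 minus PC9, EGR2 was at 0.53 ± 0.14 (limma, adjusted p = 0.0012), NR4A1 at -0.61 ± 0.13, NR4A2 at -1.09 ± 0.15 and IER3 at -1.79 ± 0.11 (limma, adjusted p = 7.3e-15). IER3 lay between 14.25 and 16.89 with a median of 15.13 in PC9 and between 12.89 and 14.11 with a median of 13.44 in PC9GRM2. IER2 was called at -1.05 ± 0.09, and turned to 0.41 with scaling to the 75th percentile and to 0.73 with its other probe. EGR1, EGR3, PHLDA1 and SRF differed by -0.29 ± 0.15, 0.11 ± 0.15, -0.23 ± 0.12 and -0.20 ± 0.16, which did not pass. PHLDA1 and SRF had other probes that did, at -0.56 ± 0.12 (A_23_P338912), -0.25 ± 0.08 (A_24_P915692) and -0.62 ± 0.13 (A_23_P111020). The order of the 8 courses by median was not the same for all genes. For EGR1 it ran from PC9 with EGF (10.98) over PC9GRM2 with gefitinib (10.65), untreated PC9 (10.13) and the 3 other PC9GRM2 courses (9.965 to 9.449) to the gefitinib courses of PC9 (6.69 with EGF and 6.28 without). Neighbours in that order overlapped in the range between their quartiles but for 1 step, between PC9GRM2 with EGF and PC9 with both agents. For EGR2, PC9GRM2 with gefitinib came first (6.635), and both gefitinib courses of PC9 lay last, with no overlap between their ranges and that of the course before them. For EGR3 and PHLDA1 the 4 courses without gefitinib came before the 4 with it.

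**Figure D5:**
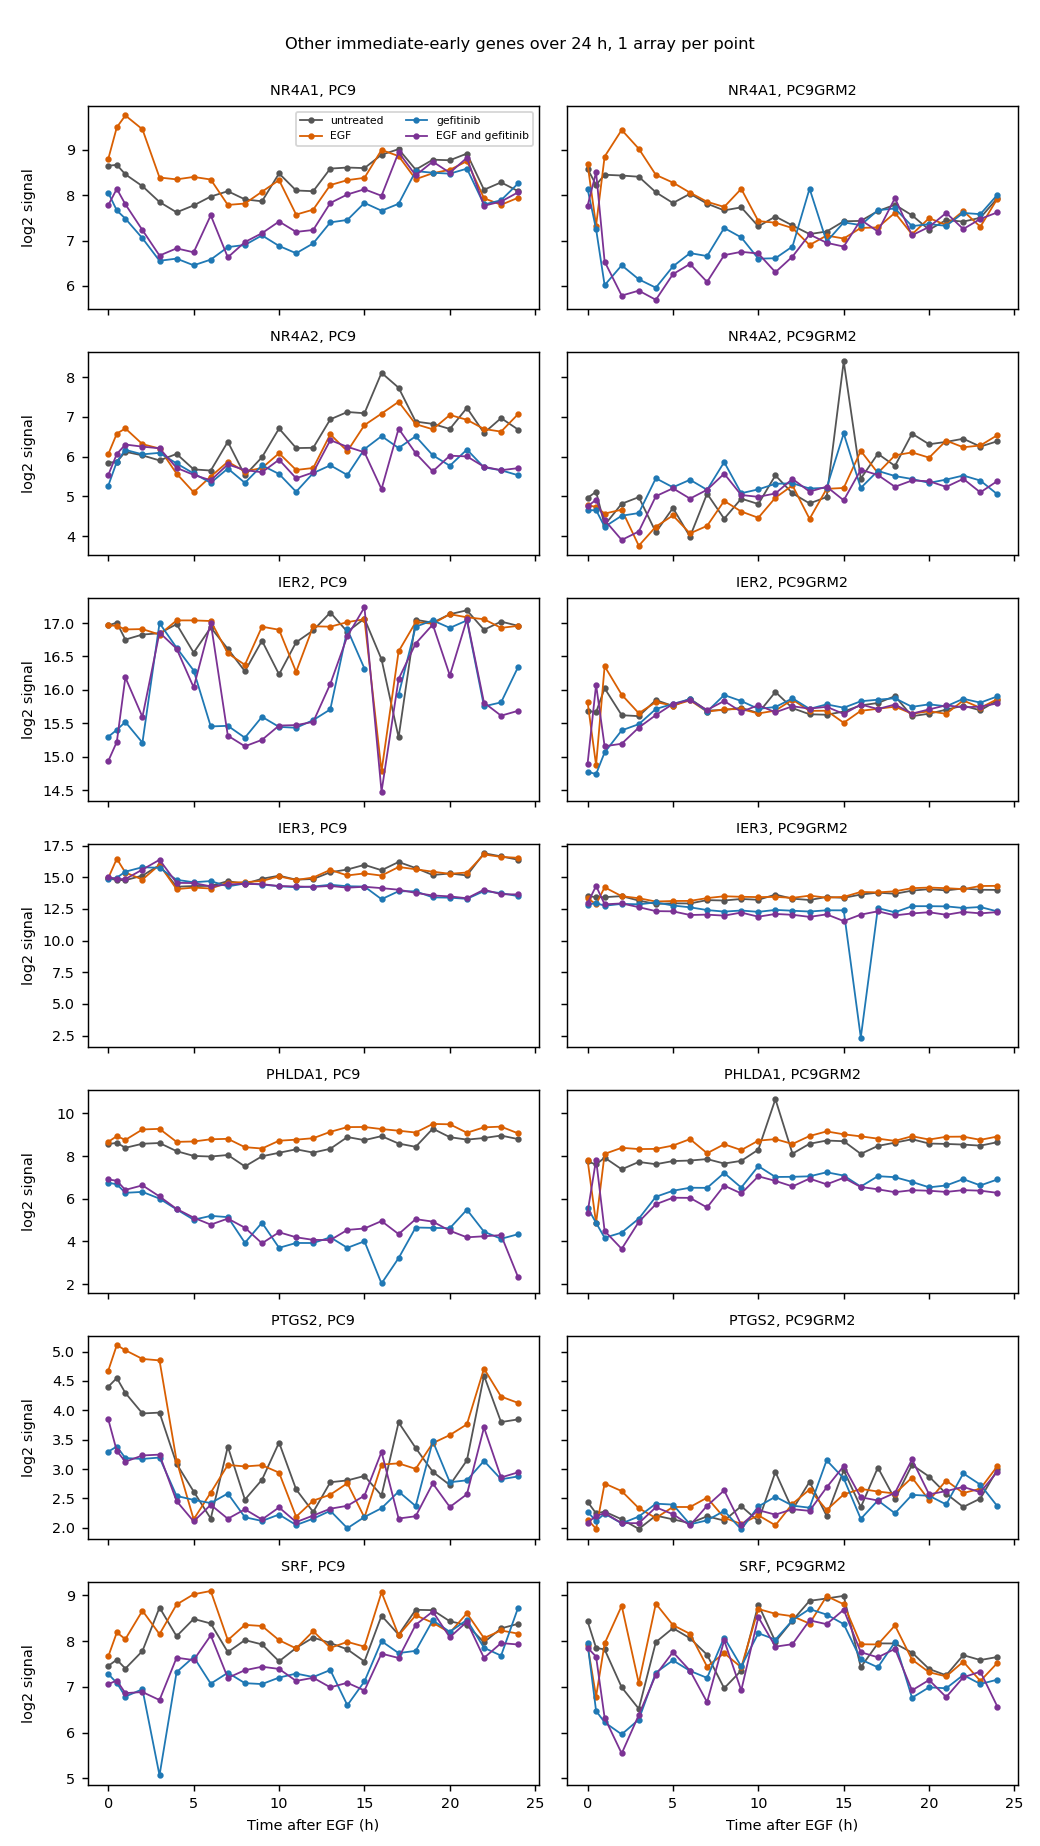
log2 signal of NR4A1, NR4A2, IER2, IER3, PHLDA1, PTGS2 and SRF against time after EGF in h, 1 array per point, PC9 on the left and PC9GRM2 on the right, with the 4 treatments as coloured lines. NR4A1 peaks with EGF at 9.76 at 1 h in PC9 and at 9.44 at 2 h in PC9GRM2. Single arrays stand far from their course, such as IER3 at 2.35 at 16 h and NR4A2 at 8.40 at 15 h in PC9GRM2.

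Single arrays moved some of these values. In PC9GRM2 the gefitinib array of 16 h read 2.35 for IER3, against 12.233 to 13.012 on the 25 others. Without it the gefitinib effect on IER3 was -0.91 ± 0.09 (limma, adjusted p = 1.1e-09) in place of -1.31, and the line difference of that effect 0.00028 in place of -0.35. NR4A2 read 8.40 on the untreated array of 15 h in PC9GRM2, and without that time the untreated line difference was -1.19. PHLDA1 read 10.665 on the untreated array of 11 h in PC9GRM2. Without 11 h EGF raised PHLDA1 from 5 to 24 h by 0.43 ± 0.11 (limma, adjusted p = 0.0098), a call that was absent with it, and the untreated line difference of PHLDA1 passed at -0.33. SRF read 5.07 with gefitinib at 3 h in PC9, and without 3 h its gefitinib effect was -0.56 ± 0.08. The gefitinib array of 16 h in PC9 had the lowest values of its course for EGR1 (3.75), EGR2 (1.996) and PHLDA1 (2.03), and its IER2 spot was marked as an outlier and removed.

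Other genes of the pathway were counted from lists, as a description. Of 40 other immediate-early genes 38 were tested. EGF in PC9 raised 8 of them at 0.5 to 1 h, beside 0.121% of all genes called (median 0.46 against -0.0029 over all genes tested), among them KLF2 (2.35 ± 0.27), a zinc finger factor, EGR4 (1.88 ± 0.39), a further EGR factor, DUSP1 (1.75 ± 0.18), the phosphatase that switches ERK, p38 and JNK off, and RHOB (1.69 ± 0.33), a small GTPase. At 2 to 4 h 7 rose, beside 0.822%, and from 5 to 24 h the count was 21 up and 4 down, beside 26.7%. In PC9GRM2, without the slide of 0.5 h, EGF raised 3 at 1 h, CCN1 (1.58 ± 0.30), a matricellular protein, KLF10 (1.53 ± 0.26) and ZFP36 (0.96 ± 0.20), which destabilizes transcripts, then 11 at 2 to 4 h and 4 from 5 to 24 h, beside 0.287%, 2.65% and 11.2% of all genes called. Gefitinib in PC9 gave 8 up and 28 down, beside 72.3% called (median -0.61 against -0.02 over all genes tested), with FOSL1 (-4.35 ± 0.23) and FOS (-2.82 ± 0.12), both AP-1 subunits, and HBEGF (-3.20 ± 0.20), a ligand of the EGF receptor. As labelled, EGF in PC9GRM2 raised 0, 6 and 3 of the 38 at 0.5 to 1, 2 to 4 and 5 to 24 h. Of all genes 0.0603%, 1.98% and 10.8% were called there. In PC9GRM2 gefitinib gave 8 up and 17 down, beside 66.7%. The change from 0-1 h to 5-24 h in PC9GRM2 was 16 up and 1 down, beside 23.1%, with FOS (3.75 ± 0.27), EGR4 (2.74 ± 0.28), PLK3 (2.52 ± 0.19), a stress kinase, and SGK1 (1.88 ± 0.20), a serum-induced kinase. In PC9 the same change was 11 up and 5 down, beside 33.3%, with RHOB (2.57 ± 0.38) upward and CCN2 (-2.01 ± 0.48), a matricellular protein, downward. The difference of that change between the lines was called for 6 of the 38, all upward, beside 3.15%.

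All 10 delayed feedback genes of ERK fell with gefitinib in both lines (median -3.04 against -0.02 over all genes tested in PC9 and -0.95 in PC9GRM2), and all 10 differed between the lines, beside 72.3%, 66.7% and 34% of all genes called. In PC9, DUSP6 (-6.80 ± 0.27), the ERK phosphatase, and SPRY4 (-4.99 ± 0.13), an inhibitor of receptor signals, fell furthest. In PC9GRM2 the change from 0-1 h to 5-24 h was 4 up and 2 down, beside 23.1%, with SPRY4 (3.56 ± 0.33) and DUSP6 (3.02 ± 0.22) upward and ETV4 (-0.91 ± 0.32), an ETS factor, downward. In PC9 it was 0 up and 7 down, beside 33.3%. For EGF in PC9 none of them was called before 5 h and 5 rose from 5 to 24 h, beside 26.7%. Of the 7 partners of SRF and EGR proteins, gefitinib gave 2 up and 4 down in PC9, with ELK4 (-1.46 ± 0.12) and ELK3 (-1.44 ± 0.12), ternary complex factors, MRTFB (0.74 ± 0.08), an SRF coactivator, and NAB2 (-0.60 ± 0.10), a corepressor of EGR1. In PC9GRM2 it gave 2 up and 4 down. These counts stand beside 72.3% and 66.7% of all genes called, as do those of the next lists. Of the 15 cytoskeletal targets of SRF 13 were tested, and gefitinib gave 2 up and 9 down in PC9 and 2 up and 9 down in PC9GRM2, with ACTN1 at -1.01 and -0.68. EGF in PC9 raised FHL2 alone of them at 2 to 4 h, by 0.81 ± 0.15. Of the 11 prostaglandin genes 7 were tested, with 2 up and 3 down by gefitinib in PC9 and 2 up and 3 down in PC9GRM2, a share of called genes near that of all genes. PTGES, a prostaglandin E synthase, was at 1.58 and 1.29 and HPGD, which breaks prostaglandins down, at 1.62 and 2.09. PTGER4, a receptor of prostaglandin E, rose with EGF in PC9 by 1.33 ± 0.20 at 0.5 to 1 h and 0.94 ± 0.17 at 2 to 4 h, and differed by -2.26 ± 0.16 with gefitinib.

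Likeness of pattern was read as Pearson's r of the differences between arrays with and without EGF, over 102 slide-matched pairs of both lines, without and with gefitinib, leaving out the slide of 0.5 h in PC9GRM2. These pairs share slides and courses, so that r is a description. Among the 9 genes EGR1 and EGR2 were most alike (r = 0.875), EGR2 and EGR3 followed (0.629), and EGR2 and PHLDA1 gave 0.612. IER3 and NR4A2 stayed under 0.3 with every other gene of the 9. Their pairs include arrays of PC9GRM2 that stood apart. The difference was 9.70 for IER3 at 16 h with gefitinib and -3.19 for NR4A2 at 15 h without it. The r of IER3 and NR4A2, with genes of the 9 or others, may rest on these arrays and was not taken without them. In PC9 with gefitinib the pair of 16 h differed by 2.72 for EGR1, 2.64 for EGR2 and 2.92 for PHLDA1. The r of these genes may rest on that pair in part and was not taken without it. Most gefitinib arrays of EGR2 and EGR3 in PC9 were also not well above background. Outside the 9 genes, the 3 genes most like EGR1 were FOS (0.720), PLK3 (0.665) and ID1 (0.649). Those most like EGR2 were AREG (0.678), which encodes a ligand of the EGF receptor, FOS (0.667) and DUSP1 (0.657). For EGR3 they were AREG (0.748), PHLDA2 (0.720) and STK17A (0.669), and for PHLDA1 CD55 (0.738), TMEM158 (0.734) and UBE2H (0.709). For NR4A1 the nearest was MPP3 (0.657), for SRF SRSF6 (0.657), for IER3 FASTK (0.619), for IER2 PTCD1 (0.565) and for NR4A2 HOTAIR (0.511). With the slide included EGR1 and FOS gave 0.841.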

How the data were processed

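Total RNA of 208 samples was labelled with Cy3 and hybridized to Agilent arrays. The authors deposited signal intensities, background-subtracted and detrended by the scanner software, without normalization between arrays, and a table of normalized intensities of the same arrays. Here the intensities were quantile normalized over 41000 probes, floored at 1 and log2 transformed. Outlier spots were left out (0.0793% of the values tested), and repeated spots were averaged for each probe. The probe of largest variance stood for a gene. RefSeq accessions gave the symbols. Differences at matched time points were fitted with limma 3.58.1 (R 4.3.3), with windows of 0 h, 0.5 to 1 h, 2 to 4 h and 5 to 24 h that share 1 residual variance, and two-sided p-values were adjusted over all tested genes. The fits were tested on simulated data. Where no windows are named, the mean over all time points was taken. The number of arrays limits the precision. The 10 genes and the lists were chosen with earlier results of these data known. All 10 genes are named, and of a list at most 4 called genes with the largest changes. Likeness names the 3 nearest genes. Alternatives covered scaling, background, floor, probe, filter, windows, time points, the deposited table, the methods' paired t-test and scan day.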

Additional observations from a re-analysis of the deposited data

Results flagged for a closer look

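The effect of gefitinib over 0 to 24 h differed between PC9GRM2 and PC9, by limma's test of the difference itself (adjusted over all genes, 26 time points), for 6 of the 9 tested genes, beside 34% of all genes. It was 4.37 (SE 0.41) higher on the log2 scale in PC9GRM2 for EGR1, 2.85 (SE 0.34) for EGR2, 1.94 (SE 0.31) for PHLDA1, 1.56 (SE 0.33) for EGR3, 0.71 (SE 0.12) for IER2 and 0.53 (SE 0.15) for NR4A2. The gefitinib arrays of EGR2, EGR3 and PHLDA1 in PC9 were well above background at only 6, 7 and 13 of 26 time points, so that the sizes of these 3 differences are uncertain. The adjusted p was 6.5e-09 for EGR1, 2.3e-07 for EGR2, 1.5e-05 for PHLDA1, 3.9e-05 for IER2, 0.00046 for EGR3 and 0.0090 for NR4A2. For EGR1 and EGR2 gefitinib was below the untreated array at 26 of 26 time points in PC9, and at 4 and 6 of 26 in PC9GRM2. The IER2 value rests on a probe that was saturated in PC9 and turned with another scaling.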

How the results depend on the processing

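Over the changes of the 9 tested genes, the deposited table of normalized values, no filter on dim probes, the methods' paired t-test (taken after Benjamini-Hochberg adjustment) and scan day as a random block left every call and direction as they were (153, 153, 36 and 9 values). The deposited table kept the ranks of the scanner signals on each array (lowest Spearman rho 1), with a spread of 0 between arrays at each rank. It was thus quantile normalized as here, and its unchanged calls are no separate check. Scaling to the 75th percentile left 147 of 153, normexp 142, a floor of 16 150, and other probes 239 of 255. The first 4 h rest on few arrays. Fitted on its own time points alone, a window called 0 genes at 0.5 to 1 h and at 2 to 4 h in both lines (0 of the 9), 2 of the 9 at 5 to 24 h in PC9GRM2, 565 and 0 genes under gefitinib in PC9, 0 under gefitinib in PC9GRM2 at 0.5 to 1 h, and 1 and 0 genes for the EGF effect without minus with gefitinib in PC9 and PC9GRM2. Leaving out 1 time point of the window gave 4 to 8 genes and 2 of the 9 in PC9 at 0.5 to 1 h, and 11 to 130 genes and 1 to 5 at 2 to 4 h. In PC9GRM2 it gave 38 to 213 genes and 3 to 5 at 0.5 to 1 h, 10 to 280 and 0 to 1 at 2 to 4 h, and 1218 to 2128 and 0 to 2 at 5 to 24 h. Under gefitinib it gave 0 and 0 to 3 genes in PC9 and 57 to 710 genes (0 to 7 of the 9) and 1 to 3 genes in PC9GRM2. For the difference with and without gefitinib it gave 3 to 11 genes in PC9 and 0 to 54 (0 to 3 of the 9) in PC9GRM2, and 0 to 1 for the line difference of the EGF effect. Without the slide of 0.5 h, PC9GRM2 gave 38 genes and 3 of the 9 at 0.5 to 1 h, with EGR1 at 1.89 and EGR3 at 2.60, 3 of the 9 at 2 to 4 h and 2 at 5 to 24 h. Under gefitinib it gave 57 genes and 0 of the 9 at 0.5 to 1 h, with EGR1 at -0.28, and 2 genes and 1 of the 9 at 2 to 4 h. The difference with and without gefitinib gave 54 genes and 3 of the 9, with EGR1 at 1.47 and EGR3 at 2.17. Normexp gave 17 genes at 0.5 to 1 h, 2 of the 9 at 2 to 4 h and 1 at 5 to 24 h in PC9GRM2, 56 and 18 genes under gefitinib in PC9, 59 genes (4 of the 9) and 0 genes for the difference with and without gefitinib in PC9 and PC9GRM2, and 2 for the line difference of the EGF effect. Scaling to the 75th percentile gave 167 genes at 2 to 4 h in PC9GRM2, 1 there under gefitinib, and 7 (1 of the 9) and 0 for the difference with and without gefitinib. A floor of 16 gave 2 of the 9 at 2 to 4 h in PC9GRM2, 40 and 7 genes under gefitinib in PC9, and 1 of the 9 and 0 genes for that difference. The probe of highest mean gave 5 genes at 0.5 to 1 h and 2 of the 9 at 2 to 4 h in PC9GRM2 and 0 genes for the difference there, and no filter gave 14, 295 under gefitinib, and 2. With 1 time point in 3 used, gefitinib called 4215 genes (3 of the 9) in PC9GRM2, its line difference 349 (2), and the untreated line difference 5194. IER2 reversed with its other probe, to 0.11 for gefitinib in PC9, -0.23 for its line difference and 0.73 untreated, and with scaling to the 75th percentile, to -0.0626 for the line difference and 0.41 untreated. Leaving out 1 h in place of 0.5 h in PC9GRM2 gave ranges of -3.54 to 1.89 for EGR1 and -3.23 to 2.60 for EGR3 at 0.5 to 1 h, -0.28 to 6.09 for EGR1 under gefitinib, and -1.48 to 1.47 for EGR1 and -0.86 to 2.17 for EGR3 in the difference with and without gefitinib. The causes of these shifts were not tested, beyond the smaller number of time points where some were left out.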
